A study of Mus musculus with 32 samples.

Results

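Hepatokines are proteins that hepatocytes release into the blood and that act on other organs. The 9 genes Fgf21, Angptl4, Angptl8, Gdf15, Igfbp2, Inhbe, Fetub, Ahsg and Lect2 were chosen by name as liver-secreted signals of feeding and fasting, out of the 20076 genes in the count table. This choice was made with earlier results of these data known. All 9 passed the filter on low counts in the model over the 8 groups. In the comparison of KO and WT mice on the LF diet after fasting 8 of the 9 passed, and Gdf15 did not.

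The question was how these mRNAs responded to fasting, to a high-fat diet and to loss of medium-chain acyl-CoA dehydrogenase (MCAD), an enzyme of mitochondrial fatty-acid oxidation encoded by Acadm. Liver mRNA of 32 male C57BL/6J mice was sequenced from the 3′ end. The mice were wild type (WT) or Acadm-knockout (MCAD-KO, below KO, a knockout not restricted to the liver) and had been given a low-fat control diet (LF) or a high-fat semisynthetic diet (HF) for 6 weeks. They were then fasted for 16 h or kept on their diet, which made 8 groups of 4 mice: WT LF fed, KO LF fed, WT LF fasted, KO LF fasted, WT HF fed, KO HF fed, WT HF fasted and KO HF fasted. Ages in the labels ran from 7.5 to 16 with no unit.

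Total gene counts ran from 2031053 to 4292200 per library. The analysis used 30 mice: replicate 4 of the KO HF fasted mice and replicate 2 of the WT LF fed mice were left out, so that these 2 groups held 3 mice and the other 6 groups 4. In the first of them 10 hepatocyte marker genes summed to 716 CPM (counts scaled to library size), against 35337 to 57137 CPM in the 30 mice, and 12 heart genes to 38457 CPM, where no other library exceeded 64.6 CPM. The second had 29204 CPM of hepatocyte genes, 1092 CPM of 6 stellate cell genes against 335 to 582 CPM in the 30 mice, and 162 CPM of Fgf21, more than any of the 30 mice. Since Fgf21 is among the 9 members, its values with this mouse put back are given below. Acadm lay between 189.8 and 748 CPM in the WT mice and between 8.98 and 37.1 CPM in the KO mice, so that every mouse matched the genotype of its label. The labels place 16 mice on each of 2 sequencing lanes, and all WT LF fed mice on lane 8. Each library is bulk liver RNA, in which fewer cells of a type and less RNA per cell cannot be told apart, and mRNA levels do not give the plasma protein.

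FGF21 is a fasting hormone of the liver that signals through FGF receptors and the co-receptor beta-Klotho, and its gene is a classical target of the fatty-acid sensor PPARα and of the stress-induced factor ATF4. ANGPTL4 and ANGPTL8 inhibit lipoprotein lipase, the enzyme that releases fatty acids from circulating triglyceride, and are known for opposite regulation by fasting and by insulin. Inhbe encodes the activin E subunit and Gdf15 a stress hormone, both of the TGF-beta family, while IGFBP2 binds insulin-like growth factors, fetuin-A (Ahsg) and fetuin-B (Fetub) are cystatin-type plasma proteins, and LECT2 is a hepatokine linked to overnutrition.

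The promoters of Fgf21, Inhbe and Angptl8 are shown because these 3 genes, alone among the members with a promoter entry, share a C/EBP-ATF response element (CARE), the kind of site through which ATF4 acts. The sequences are the 250 bases before the RefSeq start on GRCm38.p6, read along the gene: Fgf21 chr7:45615491-45615740 (minus strand), Inhbe chr10:127351849-127352098 (minus strand) and Angptl8 chr9:21835260-21835509 (plus strand). Capitals mark the CARE letters TGATGNAA on either strand and, in Fgf21 only, the E-box CACGTG.
Fgf21: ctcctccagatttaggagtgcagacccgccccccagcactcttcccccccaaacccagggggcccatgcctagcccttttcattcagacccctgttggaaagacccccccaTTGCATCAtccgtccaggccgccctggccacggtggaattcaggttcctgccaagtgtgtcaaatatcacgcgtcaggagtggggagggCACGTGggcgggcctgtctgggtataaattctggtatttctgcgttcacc
Inhbe: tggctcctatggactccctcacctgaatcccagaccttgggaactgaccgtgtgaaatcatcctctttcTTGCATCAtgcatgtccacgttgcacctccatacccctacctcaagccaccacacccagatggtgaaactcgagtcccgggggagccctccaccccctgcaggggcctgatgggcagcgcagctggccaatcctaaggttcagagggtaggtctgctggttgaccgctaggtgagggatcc
Angptl8: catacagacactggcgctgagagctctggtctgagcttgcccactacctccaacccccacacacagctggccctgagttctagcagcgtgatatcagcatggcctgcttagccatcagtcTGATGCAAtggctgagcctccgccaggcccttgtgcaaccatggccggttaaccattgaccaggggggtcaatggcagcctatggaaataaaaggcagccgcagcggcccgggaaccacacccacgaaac

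The CARE began 139 bases before the start in Fgf21, 181 before it in Inhbe and 130 before it in Angptl8. It lay on the strand of the gene in Angptl8 and on the opposite strand in the other two. The 8 members with a promoter entry had 11 entries, of which Igfbp2, Gdf15 and Fetub had 2 each. A CARE was held by 3 of the 11 entries, against 3.97% of 32851 promoters of the same 300 bases, which run from 250 before to 50 after a start. An E-box was held by 3 of the 11 entries, 1 each of Fgf21, Igfbp2 and Gdf15 (7.15% of all promoters). The binding motif of PPARα (AGGTCANAGGTCA with at most 2 mismatches in its 12 fixed letters) was held by 1 entry of Gdf15 with 1 mismatch (3.86%). That of FOXO factors (TGTTTAC) was held by 1 entry of Fetub (3.65%). Both strands were searched, the 4 motifs shared no bases in these promoters, and a match of letters is a description of the sequence and not of binding. Ahsg and Lect2 held none of the 4 motifs in this window. For Ahsg the 250 bases (chr16:22891765-22892014) lie inside the gene span given below, as do those of Inhbe. The bases before those 2 gene spans were not searched. Of the 2 entries each of Igfbp2, Gdf15 and Fetub, 1 lies wholly inside the gene span as well. The E-box of Gdf15 and the FOXO motif of Fetub are in these inside entries.

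Fasting moved 6 of the 9 members. Averaged over genotypes and diets, Angptl4, Fgf21, Inhbe and Igfbp2 rose and Angptl8 and Lect2 fell, while Gdf15, Fetub and Ahsg did not pass the test. The quasi-likelihood test of edgeR, with p-values adjusted by Benjamini-Hochberg over all 11566 genes tested, called 18.9% of genes (9.77% higher and 9.14% lower after fasting) at an adjusted p below 0.05. At an unadjusted p below 0.05 there were 6 members and 29.4% of genes. The members were chosen as fasting signals with earlier results known, so a share above that of all genes is not a test of them. Angptl4 had the largest change, 4.47-fold (log2 fold change 2.16, standard error [SE] 0.19, adjusted p = 4.74e-09). Fgf21 rose 3.20-fold (1.68, SE 0.43, adjusted p = 0.00603), Inhbe 2.31-fold (1.21, SE 0.22, adjusted p = 0.000189) and Igfbp2 1.97-fold (0.98, SE 0.16, adjusted p = 4.87e-05). Angptl8 fell 3.45-fold (-1.79, SE 0.27, adjusted p = 2.42e-05) and Lect2 1.71-fold (-0.78, SE 0.15, adjusted p = 0.000268). The SE of Fgf21 was the widest of the 9. None of these 6 calls was lost when any of the 30 mice was left out.

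**Figure D1:**
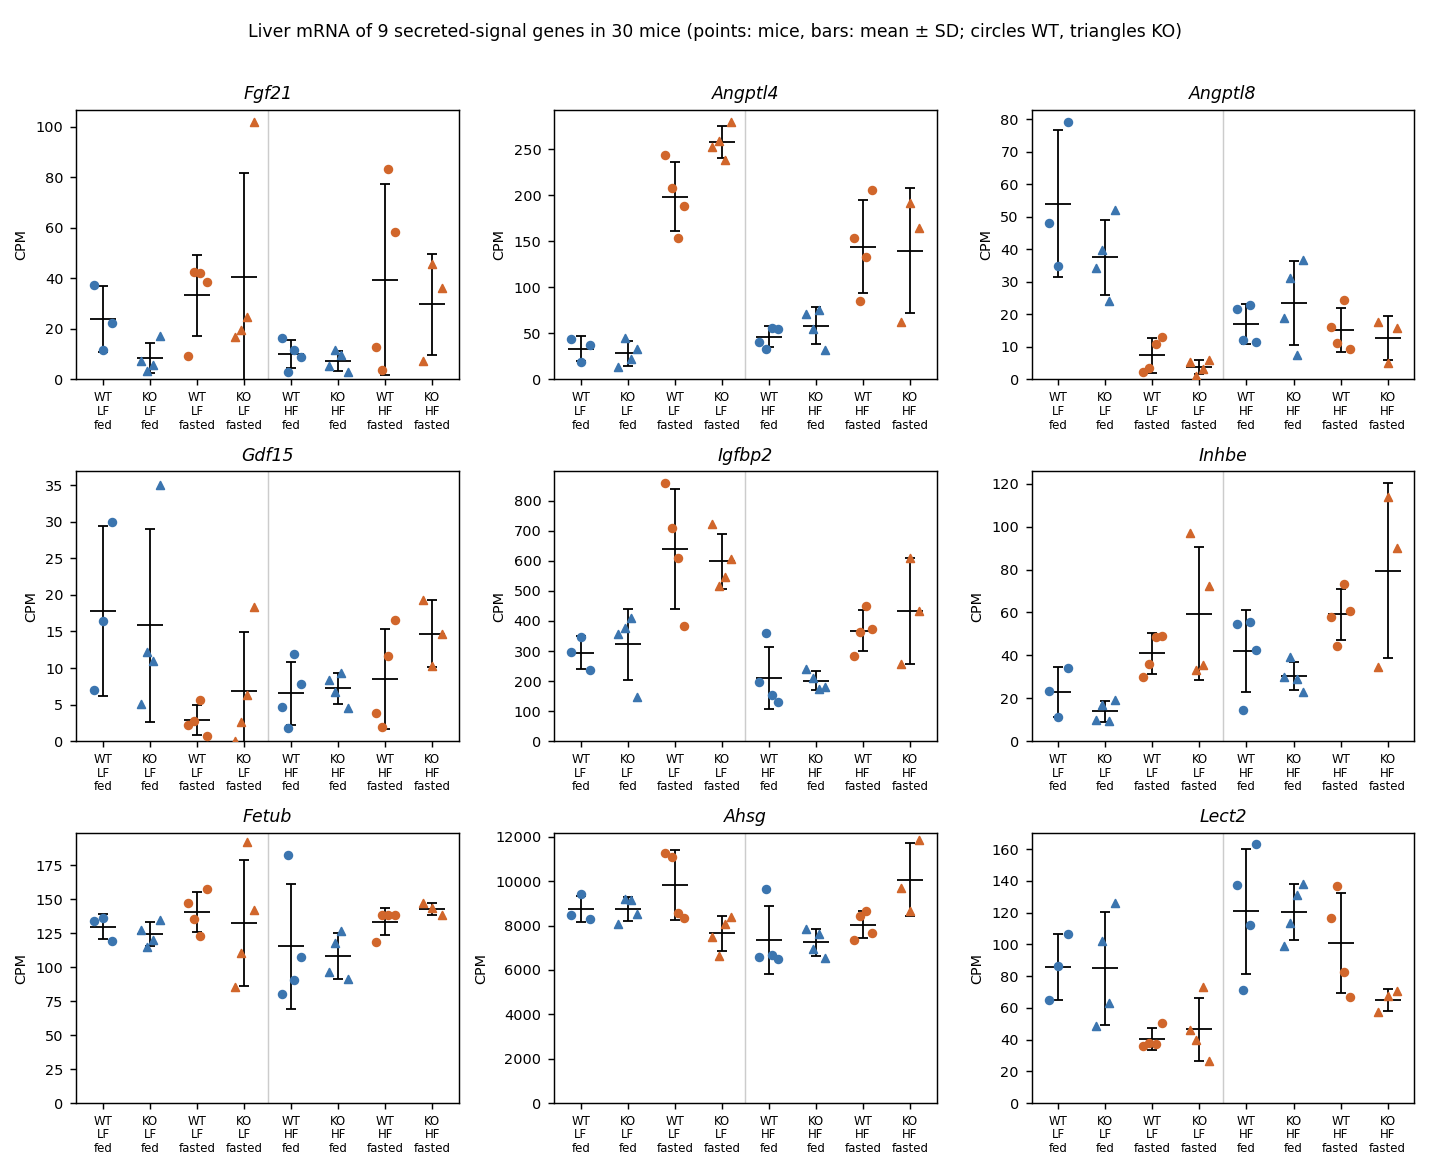
CPM (vertical axes, linear) of the 9 genes in each of 30 mice, by group; blue fed, orange fasted, circles WT, triangles KO, bars mean ± SD of 3 or 4 mice. Angptl4 stood higher in every fasted group than in the fed groups of its diet by mean, Angptl8 on LF went from 24.04 CPM or more to 13.2 CPM or less, and Fetub and Ahsg changed little.

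Each lane alone was fitted with additive terms for fasting, diet and genotype in place of the 8 groups. Lane 7 held no WT LF fed mouse. Within lanes the 6 directions held, with fewer calls. How far the model, the number of mice or the lane accounts for the lost calls was not tested. On lane 7 the log2 fold changes were 1.89 for Angptl4 (adjusted p = 0.0179), -1.76 for Angptl8 (0.0435) and 0.76 for Igfbp2 (0.0351), which passed, and 1.25 for Fgf21 (0.312), 1.05 for Inhbe (0.220) and -0.40 for Lect2 (0.434), which did not. On lane 8 they were 2.26 for Angptl4 (0.000493), 2.20 for Fgf21 (0.0104), 1.40 for Inhbe (0.00154), 1.12 for Igfbp2 (0.00429) and -1.13 for Lect2 (4.58e-05), which passed, and -1.35 for Angptl8 (0.177), which did not. All of these are edgeR's adjusted p-values.

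Angptl4 lies on chromosome 17 (33773750 to 33781830, minus strand, GRCm38) and encodes an inhibitor of lipoprotein lipase that is induced by fatty acids. In fed mice on LF it was at 44.2, 18.4 and 37.7 CPM in WT and at 13.5, 45.1, 22.3 and 32.9 CPM in KO. After fasting on LF it was at 244, 207, 154 and 189 CPM in WT and at 252, 259, 238 and 279.6 CPM in KO. Every fasted mouse on LF thus stood above every fed one. In fed mice on HF it was at 40.8, 32.9, 56.0 and 55.1 CPM in WT and at 71.3, 54.3, 75.7 and 31.4 CPM in KO. After fasting on HF it was at 153, 84.6, 133 and 206 CPM in WT and at 62.8, 192 and 164 CPM in KO. On HF the groups stood apart in WT and overlapped in KO, where replicate 1 was below 2 fed mice. Across both diets and genotypes 14 of 15 fasted mice lay above all 15 fed mice. No member's fed and fasted mice stood fully apart over both diets and genotypes, as 0.294% of genes did.

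Angptl4 rose in WT on LF (log2 2.56, SE 0.41, adjusted p = 0.000187), in KO on LF (3.19, SE 0.38, adjusted p = 2.20e-06) and in WT on HF (1.64, SE 0.36, adjusted p = 0.0332). In KO on HF it was higher by 1.26 (SE 0.37, adjusted p = 0.181) and did not pass. The KO HF value passed without KO HF fasted replicate 1 (1.61, adjusted p = 0.0237) and with DESeq2 (1.25, adjusted p = 0.0248). The WT HF call was lost without any of 7 of its 8 mice, all but WT HF fasted replicate 2 (adjusted p = 0.0646 to 0.144), with the log2 value between 1.42 and 1.74.

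Angptl8 (chromosome 9, 21835510 to 21837347, plus strand) encodes an insulin-induced inhibitor of lipoprotein lipase. It lies inside Dock6 on the opposite strand and shares no exon with it. Fed mice on LF had 48.1, 34.9 and 79.0 CPM in WT and 34.3, 39.6, 24.04 and 51.9 CPM in KO. After fasting on LF it was at 2.23, 3.61, 10.8 and 13.2 CPM in WT and at 5.29, 1.03, 3.16 and 5.87 CPM in KO. No fasted mouse on LF reached the lowest fed one, although the left-out WT LF fed mouse had 7.57 CPM. On HF, fed WT mice had 21.8, 12.1, 22.9 and 11.4 CPM and fed KO mice 18.9, 31.1, 7.51 and 36.5 CPM. After fasting on HF it was at 16.2, 11.3, 24.4 and 9.25 CPM in WT and at 17.7, 5.11 and 15.7 CPM in KO. On HF fed and fasted mice overlapped in both genotypes. Angptl8 fell on LF in WT (log2 -2.81, SE 0.55, adjusted p = 0.00120) and in KO (-3.35, SE 0.59, adjusted p = 0.00029). On HF the differences of -0.13 in WT (SE 0.50, 95% interval -1.16 to 0.90) and -0.85 in KO (SE 0.55) did not pass.

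Fgf21 (chromosome 7, 45613886 to 45615490, minus strand) was variable within groups. Fed WT mice on LF had 37.5, 11.7 and 22.3 CPM and fed KO mice 7.37, 3.37, 5.84 and 17.2 CPM. After fasting on LF it was at 9.31, 42.5, 42.3 and 38.7 CPM in WT and at 16.8, 19.6, 24.8 and 102 CPM in KO. In both genotypes 1 mouse kept the groups from standing apart, the fasted WT replicate 1 and the fed KO replicate 4. On HF, fed WT mice had 16.3, 2.93, 11.6 and 8.89 CPM and fed KO mice 5.24, 11.6, 9.61 and 2.89 CPM. After fasting on HF it was at 12.7, 3.76, 83.3 and 58.2 CPM in WT and at 7.09, 45.6 and 36.3 CPM in KO. Each fasted HF group held mice at fed levels beside mice far above them. Of the 15 fasted mice 7 lay above every fed mouse.

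Fgf21 passed edgeR's test over all groups and in no single genotype and diet. In KO on LF it passed with DESeq2 (2.26, adjusted p = 0.0303) and in edgeR with lane as a term (2.35, adjusted p = 0.0400). The log2 fold change on fasting was 0.46 in WT on LF (SE 0.83, adjusted p = 0.835), 2.23 in KO on LF (SE 0.84, adjusted p = 0.0831), 2.0 in WT on HF (SE 0.82, adjusted p = 0.420) and 2.02 in KO on HF (SE 0.90, adjusted p = 0.591). Without KO LF fasted replicate 4 the KO LF value was 1.23 (adjusted p = 0.408), and without WT HF fasted replicate 3 the WT HF value was 1.30 (adjusted p = 0.828). With the left-out WT LF fed mouse and the left-out heart-like library back in the fit, the average was 1.26 (adjusted p = 0.0897) and WT on LF turned to -0.80. With the WT LF fed mouse alone put back the average was 1.36 (adjusted p = 0.0392). WT HF fasted replicate 2, with the lowest Fgf21 of its group, had 18327 CPM of 11 acinar pancreas genes, against 17.3 to 19.5 CPM in the other 3 mice. Fgf21 is itself made in acinar cells. Without this mouse the average fasting value was 1.77 (adjusted p = 0.00193), and with the acinar sum as a term 1.25 (adjusted p = 0.0259).

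Inhbe (chromosome 10, 127348857 to 127354411, minus strand) was at 23.3, 11.1 and 34.2 CPM in WT LF fed mice and at 9.93, 16.9, 9.61 and 19.1 CPM in KO LF fed mice. After fasting on LF it was at 29.8, 36.1, 48.7 and 49.1 CPM in WT and at 97.1, 33.0, 35.3 and 72.3 CPM in KO. The KO groups stood apart and the WT groups overlapped by 1 fed mouse. On HF the fed levels were 54.8, 14.6, 55.7 and 42.3 CPM in WT and 30.04, 39.1, 28.8 and 23.1 CPM in KO. The fasted HF levels were 57.8, 44.4, 73.3 and 60.9 CPM in WT and 34.5, 114 and 90.1 CPM in KO. On HF fed and fasted mice overlapped in both genotypes. Inhbe rose in KO on LF (log2 2.09, SE 0.44, adjusted p = 0.00171). In the other 3 settings it was higher by 0.84 (WT on LF), 0.50 (WT on HF) and 1.40 (KO on HF), with adjusted p-values of 0.332, 0.798 and 0.219. The last of these passed without KO HF fasted replicate 1 (1.75, adjusted p = 0.0434). That mouse was the lowest of its group for Fgf21, Angptl4, Inhbe and Igfbp2.

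Igfbp2 (chromosome 1, 72824503 to 72852474, plus strand) was between 149 and 410.3 CPM in the 7 fed mice on LF (median 348) and between 382 and 859.7 CPM in the 8 fasted ones (median 608). On HF it was between 131 and 361 CPM in the 8 fed mice (median 189.5) and between 258 and 610.1 CPM in the 7 fasted ones (median 373). On LF fed and fasted mice stood apart within each genotype, and the pooled ranges overlapped on both diets. In all, 10 of 15 fasted mice lay above all fed mice. It rose in WT on LF (log2 1.12, SE 0.34, adjusted p = 0.0422), a call that was lost when any of WT LF fasted replicates 1, 2 and 3 or WT LF fed replicates 1, 3 and 4 was left out (adjusted p = 0.0572 to 0.190) and with lane as a term (0.97, adjusted p = 0.0893). In KO on LF, WT on HF and KO on HF it was higher by 0.89, 0.80 and 1.11, with adjusted p-values of 0.0539, 0.354 and 0.180. The KO LF value passed with DESeq2 (0.89, adjusted p = 0.0177) and without KO LF fed replicate 3 (1.03, adjusted p = 0.0461), and the KO HF value without KO HF fasted replicate 1 (1.37, adjusted p = 0.0471).

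Lect2 (chromosome 13, 56542464 to 56548502, minus strand) was between 48.7 and 126 CPM in fed mice on LF (median 86.2, n = 7) and between 26.6 and 73.3 CPM in fasted ones (median 38.8, n = 8). On HF it was between 71.0 and 163 CPM in fed mice (median 122, n = 8) and between 57.3 and 136.5 CPM in fasted ones (median 70.4, n = 7). Fed and fasted mice stood apart in WT on LF and in KO on HF and overlapped in the other 2 settings. It fell on LF in WT (log2 -1.08, SE 0.31, adjusted p = 0.0281) and in KO (-0.88, SE 0.29, adjusted p = 0.0416). Each of these calls was lost without any of 5 mice, with adjusted p-values of 0.0643 to 0.158 in WT (WT LF fasted replicates 1, 2 and 3 and WT LF fed replicates 3 and 4) and of 0.0998 to 0.186 in KO (KO LF fasted replicates 1, 2 and 4 and KO LF fed replicates 2 and 4). By edgeR the WT call was also lost with all 32 mice (adjusted p = 0.349), no filter (0.0574) and the acinar sum as a term (0.0637). The KO call was also lost with all 32 mice (0.388), no filter (0.0841), lane as a term (0.0603) and the 2 groups alone (0.133). On HF Lect2 was lower by -0.26 in WT (SE 0.28) and by -0.89 in KO (SE 0.31, adjusted p = 0.327), and neither passed. The KO value passed with the 2 groups alone (-0.89, adjusted p = 0.0125) and not with DESeq2 (adjusted p = 0.137), limma voom (0.245) or all 32 mice (-1.30, 0.263).

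Gdf15 (chromosome 8, 70629393 to 70632456, minus strand) had few reads, 0 to 112 counts per mouse. Fed WT mice on LF had 6.97, 16.4 and 29.99 CPM and fed KO mice 5.13, 12.2, 11.0 and 35.0 CPM. After fasting on LF it was at 2.23, 2.81, 5.61 and 0.759 CPM in WT and at 0, 2.58, 6.33 and 18.4 CPM in KO, where a count of 0 allows up to 3 counts or 1.18 CPM. The WT groups stood apart and the KO groups overlapped. On HF, fed WT mice had 4.67, 1.83, 11.9 and 7.82 CPM and fed KO mice 8.38, 6.79, 9.31 and 4.49 CPM. After fasting on HF it was at 3.85, 1.88, 11.6 and 16.6 CPM in WT and at 19.3, 10.2 and 14.6 CPM in KO. Here the KO groups stood apart, with the fasted mice higher, and the WT groups overlapped. No single fasting comparison of Gdf15 passed, with log2 values of -2.70 (WT on LF, adjusted p = 0.0670), -1.23 (KO on LF), 0.34 (WT on HF) and 1.02 (KO on HF). The first of these passed with DESeq2 (-2.67, adjusted p = 0.0334), with WT LF fed replicate 2 put back (-2.99, adjusted p = 0.0249), with the acinar sum as a term (-3.05, adjusted p = 0.0439) and with the 2 groups alone (-2.70, adjusted p = 0.00483). It did not pass with limma voom (adjusted p = 0.0785), lane as a term (-2.23, adjusted p = 0.111) or all 32 mice (adjusted p = 0.0554). Averaged over groups it was -0.64 (SE 0.41, adjusted p = 0.323).

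Fetub and Ahsg are neighbours on chromosome 16, on the plus strand and 18884 bp apart (Ahsg 22891277 to 22899449, Fetub 22918334 to 22939778). Fetub ranged from 80.5 to 183 CPM in fed mice (median 119, n = 15) and from 85.2 to 193 CPM in fasted mice (median 139, n = 15). Ahsg ranged from 6490 to 9663 CPM in fed mice (median 8094) and from 6624 to 11863 CPM in fasted mice (median 8456). In KO mice on HF the fasted mice stood above the fed mice for both genes, and in the other 3 settings they overlapped. Their average log2 fold changes on fasting were 0.21 for Fetub (SE 0.10, adjusted p = 0.171) and 0.15 for Ahsg (95% interval -0.01 to 0.30, adjusted p = 0.205). Fetub passed when WT HF fed replicate 2, with 183 CPM the highest fed mouse, was left out (0.28, adjusted p = 0.0226). Ahsg shares exonic bases with the antisense gene Gm30505, and whether the counting used strand is not given in the sources used here.

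**Figure D2:**
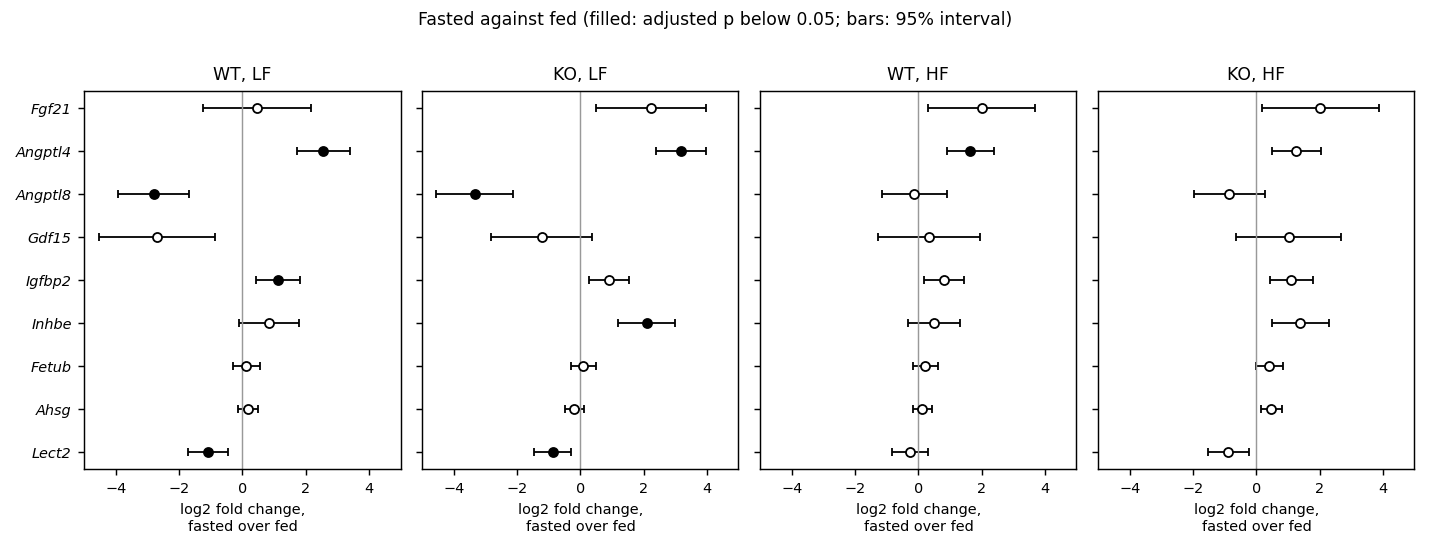
Log2 fold change of fasted over fed mice for the 9 genes in the 4 combinations of genotype and diet, with 95% intervals and filled points for an adjusted p below 0.05 by edgeR. There were 4 filled points on LF in WT and 4 in KO, 1 on HF in WT and 0 in KO.

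In WT on LF 4 of 9 members passed (7.54% of all genes tested), 2 higher (3.75%) and 2 lower (3.79%). In KO on LF 4 of 9 passed (13.8%), again 2 higher (7.26%) and 2 lower (6.53%). In WT on HF 1 of 9 passed (0.424%), a higher one (0.268%, with 0.156% of genes lower). In KO on HF 0 of 9 passed (0.527%, 0.294% higher and 0.233% lower) by edgeR's quasi-likelihood test. At an unadjusted p below 0.05 there were 5 members in WT on LF (19.3% of genes), 6 in KO on LF (25.4%), 3 in WT on HF (9.19%) and 6 in KO on HF (7.53%). DESeq2 called 3 there, Angptl4, Igfbp2 and Inhbe, and limma voom called 0. Fed and fasted mice did not overlap for 5 members in WT on LF (20.1% of all genes), 4 in KO on LF (13.7%), 1 in WT on HF (5.93%) and 5 in KO on HF (10.5%).

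Whether the fasting response itself differed between the diets was tested by the interaction of diet and fasting, which passed for 2 of 9 members (2.46% of all genes), 1 positive (1.26%) and 1 negative (1.2%). At an unadjusted p below 0.05 there were 4 members (13.3% of genes), the other two being Gdf15 and Ahsg. The rise of Angptl4 was smaller on HF, 2.73-fold against 7.33-fold on LF (interaction -1.42 on the log2 scale, SE 0.37, adjusted p = 0.0384 by edgeR). The fall of Angptl8 was smaller on HF as well, 1.41-fold against 8.45-fold (interaction 2.59, SE 0.55, adjusted p = 0.00998). With the left-out WT LF fed mouse put back neither passed (adjusted p = 0.0520 for Angptl4 and 0.0537 for Angptl8). For Gdf15 the fasting difference was -1.97 on LF and 0.68 on HF (interaction 2.65, SE 0.81, adjusted p = 0.0937). It passed with DESeq2 (adjusted p = 0.0482) and limma voom (0.0448), and without KO LF fasted replicate 4 (3.27, adjusted p = 0.0247). For Fgf21 the interaction was 0.66 with a 95% interval of -1.08 to 2.41, wide enough to hold a change of either sign. For Inhbe it was -0.52 (-1.41 to 0.37), for Igfbp2 -0.05 (-0.71 to 0.61) and for Lect2 0.41 (-0.20 to 1.02).

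The Angptl8 interaction passed without each of the 30 mice in turn. That of Angptl4 fell short without any of 16 mice (adjusted p = 0.0522 to 0.0814, log2 -1.47 to -1.25), namely KO HF fasted replicate 1, KO HF fed replicates 1, 2 and 3, KO LF fasted replicates 1, 2 and 4, KO LF fed replicate 3, WT HF fasted replicates 2 and 3, WT HF fed replicates 3 and 4, WT LF fasted replicates 1 and 2 and WT LF fed replicates 3 and 4. With the left-out WT LF fed mouse in the fit the adjusted p was 0.0520 for Angptl4 and 0.0537 for Angptl8.

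**Figure D3:**
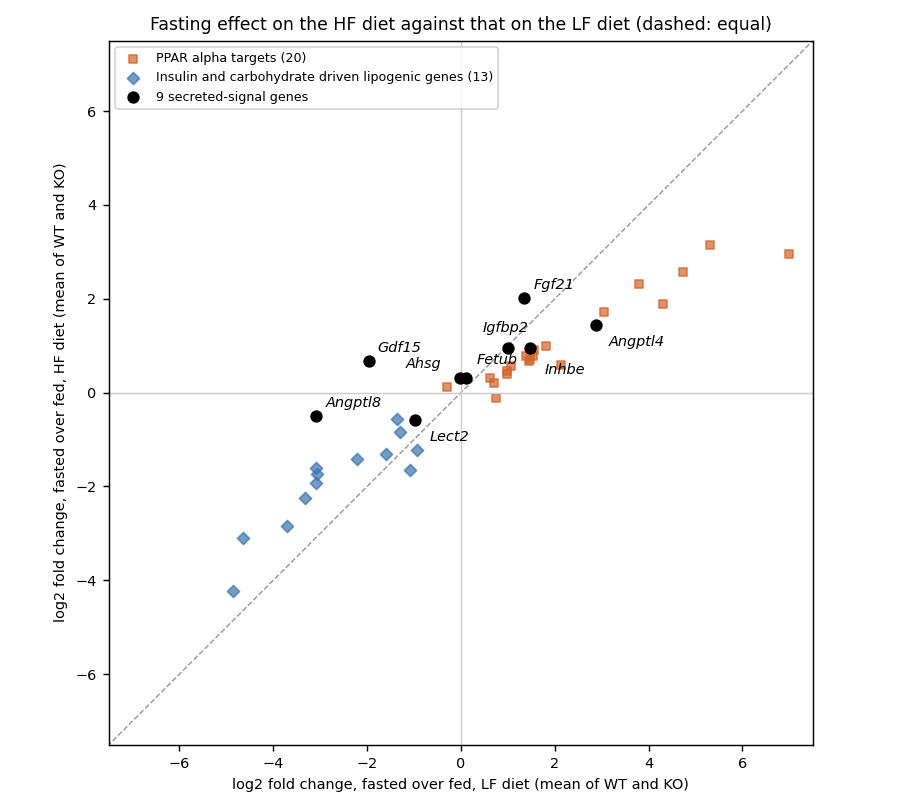
Log2 fold change of fasted over fed mice on HF (vertical) against LF (horizontal), each the mean of WT and KO, for the 9 genes (black), 20 PPARα targets (orange) and 13 lipogenic genes (blue); the dashed line marks equal changes. All 20 PPARα targets changed more on LF by size, Angptl8 lay at -3.08 on LF and -0.49 on HF, and Gdf15 at -1.97 and 0.68.

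The other genes of these pathways were followed in lists. These too were chosen with earlier results known, so their difference from all genes is a description and not a test. Of 20 PPARα targets 17 rose on fasting and 0 fell (median log2 1.12, against -0.00 over all genes tested). Among them Cpt1a, the entry enzyme of mitochondrial fatty-acid oxidation, rose 2.63-fold, and the carnitine carrier gene Slc25a20 by 1.15 and Cpt2 by 1.06 on the log2 scale. Of 13 insulin and carbohydrate driven lipogenic genes 13 fell (median -2.36), with ATP citrate lyase (Acly) 6.88-fold lower and Srebf1, a lipogenic transcription factor gene, at a log2 change of -2.40. The diet by fasting interaction was negative and passed for 8 of the 20 PPARα targets (median -0.77 on the log2 scale, against -0.01 over all genes tested), Slc25a20 (-0.76), Acot1 (-2.16) and the fatty-acid omega-hydroxylase gene Cyp4a14 (-4.03) among them. It was positive and passed for 1 of the 13 lipogenic genes (median 0.81), Mlxipl (0.81), which encodes the carbohydrate-responsive factor ChREBP. The changes of all 20 PPARα targets and 11 of the 13 lipogenic genes were larger in size on LF than on HF, as were those of 67.3% of all genes tested and of 6 of the 9 members.

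Of 16 tested targets of ATF4 and the integrated stress response 3 rose on fasting (Atf5, Cebpb and Trib3) and 2 fell (Atf4 and Chac1), with a median of 0.05. Atf4 itself fell 1.42-fold (log2 -0.51, SE 0.11, adjusted p = 0.000419). Trib3, a pseudokinase induced by ATF4, rose 1.67-fold (adjusted p = 0.0479), while Chac1, a glutathione-degrading enzyme, fell 2.41-fold. The list, which counts Atf4 itself, thus held calls in both directions. The part of ATF4 in the rise of Fgf21 and Inhbe was not tested.

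Among liver genes listed with the pathways of the members, Fgfr3 and Fgfr4, receptors of the FGF family, fell (log2 -0.84, SE 0.12, and -0.72, SE 0.16). They were the only 2 of 5 tested genes of the FGF21 signalling list to pass, and Klb was not among them. The other organs on which hepatokines act were not measured. In the lipoprotein lipase list of 8 genes, Apoa5 (0.46) and Apoc2 (0.30), which aid lipoprotein lipase, rose and the lipase gene Lipc (-0.36) and the maturation factor Lmf1 (-0.54) fell. Of 7 tested genes of insulin-like growth factor binding Igfbp1 (1.74, SE 0.33), a classical insulin-repressed gene, and Igfbp4 (0.43) rose. Of 9 tested genes of activin and GDF signalling Inhba (-1.08), the activin A subunit, and Fst (-1.12), the activin-binding protein follistatin, fell and the receptor gene Bmpr2 (0.32) rose. The GDF15 receptor gene Gfral was not in the table used here.

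Of 4 other cystatin-type plasma protein genes 0 passed on fasting by edgeR's quasi-likelihood test, with 1 (Hrg, 0.30) at an unadjusted p below 0.05 and a median of 0.09. Of 14 other genes of secreted liver signals 4 rose, among them Tsku (log2 1.60, SE 0.29), Fgl1 (0.82) and Rbp4 (0.53), and Manf (-0.96) fell. Among 9 regulators Ppara (0.63, SE 0.13), Hnf4a (0.34) and Foxo1 (0.31) rose and the glucocorticoid receptor gene Nr3c1 (-0.42) and Stat5b (-0.42) fell. The lists held genes rising and falling together with medians of 0.04 for the secreted signals and 0.18 for the regulators.

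The HF diet, averaged over genotypes and feeding states, moved 2 of 9 members (3.49% of all genes), 1 up (2.26%) and 1 down (1.24%), with 3 at an unadjusted p below 0.05 (15.8% of genes). Lect2 was raised 1.63-fold (log2 0.70, SE 0.15, adjusted p = 0.00591) and Igfbp2 was lowered 1.52-fold (-0.61, SE 0.16, adjusted p = 0.0322 by edgeR). Inhbe was higher by 0.74 (SE 0.22, adjusted p = 0.0595) and passed with DESeq2 (adjusted p = 0.00741) and limma voom (0.0453). The remaining 6 did not pass, with adjusted p-values from 0.583 (Ahsg) to 0.969 (Gdf15). Angptl4 had an average near 0 (0.04, 95% interval -0.34 to 0.42) with opposite signs by feeding state, 0.46 and 1.04 in fed WT and KO mice and -0.46 and -0.88 in fasted ones, none past the test.

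Lect2 passed in 1 of the 4 diet comparisons, WT fasted mice, where 1.12% of all genes passed (0.666% higher and 0.45% lower). It was at 117, 137, 82.6 and 67.0 CPM on HF and at 36.1, 37.7, 37.1 and 50.6 CPM on LF, and the groups stood apart (log2 1.31, SE 0.29, adjusted p = 0.0168). This call was lost without WT HF fasted replicate 1 or 2 or WT LF fasted replicate 1 or 2 (adjusted p = 0.0586 to 0.0893) and with the acinar sum as a term (1.11, adjusted p = 0.130). In the other 3 comparisons the value was 0.49 in WT fed, 0.51 in KO fed and 0.50 in KO fasted mice. In WT fed mice 0 members passed (0.0778% of genes, 0.0519% higher and 0.0259% lower), with 1 at an unadjusted p below 0.05 (5.22%), Angptl8 at -1.66. In KO fed mice 0 passed (0.00865%), with 3 at an unadjusted p below 0.05 (7.26%), Angptl4, Inhbe at 1.12 and Igfbp2 at -0.68. In KO fasted mice 0 passed (1.68%, 1.07% higher and 0.605% lower), with 3 at an unadjusted p below 0.05 (13.1%), Angptl8 at 1.81, Angptl4 and Ahsg at 0.40. DESeq2 and limma voom called 0 members in these 3 comparisons, as edgeR's quasi-likelihood test did. With the 2 groups alone edgeR called Angptl8 in WT fed mice (-1.66, adjusted p = 0.0355) and Inhbe in KO fed mice (1.12, adjusted p = 0.0405). WT fasted mice had 2 members at an unadjusted p below 0.05 (12.3%). The LF and HF mice did not overlap for 1 member in WT fed (8.33% of genes), 1 in WT fasted (7.23%), 2 in KO fed (5.75%) and 2 in KO fasted mice (9.36%).

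The average Igfbp2 effect of diet fell short without any of 12 mice (adjusted p = 0.0506 to 0.0700, log2 -0.61 to -0.54), namely KO HF fasted replicates 1 and 3, KO HF fed replicates 3 and 4, KO LF fasted replicate 1, KO LF fed replicates 1 and 3, WT HF fasted replicate 1, WT LF fasted replicates 1 and 2 and WT LF fed replicates 1 and 3. Inhbe passed without KO HF fasted replicate 1, KO LF fasted replicate 1, WT HF fed replicate 2 or WT LF fed replicate 4 (adjusted p = 0.0157 to 0.0406). Within lanes Lect2 was higher on HF by 0.77 on lane 7 (adjusted p = 0.253) and 0.82 on lane 8 (0.0145), and Igfbp2 was lower by -0.78 (0.0963) and -0.62 (0.282), by edgeR. The directions were thus the same on both lanes.

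Among the lists, diet moved Igfbp1 down (log2 -1.96, SE 0.33, adjusted p = 0.00124) and Igfals, which encodes a subunit of the circulating IGF complex, up (0.38, SE 0.11). Cd36, a fatty-acid transporter and alone among the 20 PPARα targets in passing, rose 2.45-fold. Atf5 (-0.44) and Ddit4 (-1.33) fell among the 16 ATF4 targets, Acacb (-1.19) among the 13 lipogenic genes and Ppargc1a (-0.54) among the 9 regulators. Of the 14 other secreted signals Tsku rose (1.07) and Mst1 fell (-0.32).

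KO and WT mice were compared within each diet and feeding state and on average. No member passed in any of these 5 comparisons or in the interactions of genotype with fasting and with diet, by edgeR's quasi-likelihood test, and DESeq2 and limma voom called 0 as well. At an unadjusted p below 0.05 there was 1 member in LF fed mice (5.61% of genes), 1 in HF fasted mice (3.69%), 0 in LF fasted mice (2.28%), 0 in HF fed mice (3.92%) and 0 on average (2.9%). There was 1 in the interaction with fasting (4.95%) and 1 in that with diet (3.43%). Of all genes, 0.0193% passed in LF fed, 0.0104% in LF fasted, 0.00998% in HF fed and 0.0096% in HF fasted mice, and 0.00865% on average, and 0.0% in each interaction. In no condition did KO and WT mice stand apart for any member. Non-overlap was found for 6.79% (LF fed), 2.12% (LF fasted), 2.68% (HF fed) and 5.33% (HF fasted) of genes.

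**Figure D4:**
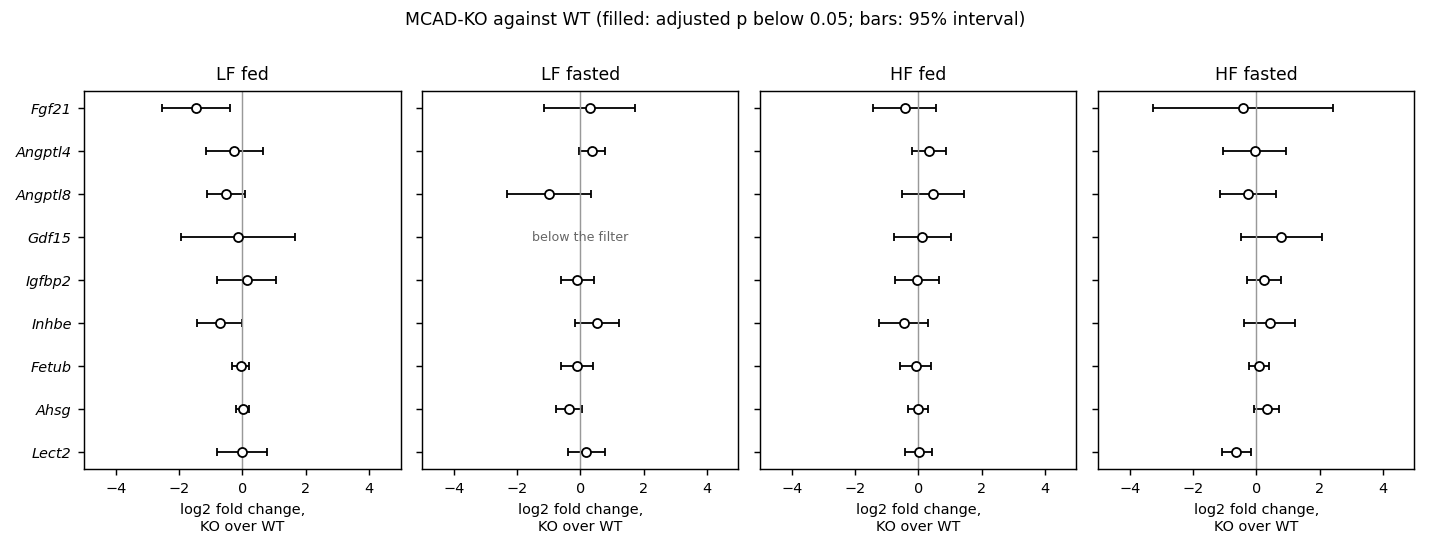
Log2 fold change of KO over WT mice in each diet and feeding state, with 95% intervals; open points did not pass the adjusted test, and Gdf15 was below the count filter in LF fasted mice. No point is filled, and the interval leaves out 0 for Fgf21 in LF fed and Lect2 in HF fasted mice.

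On average the KO to WT differences lay between -0.51 (Fgf21, 95% interval -1.39 to 0.36) and 0.52 (Gdf15, -0.32 to 1.37) on the log2 scale. The intervals were narrowest for Ahsg (-0.17 to 0.14), Fetub (-0.24 to 0.17), Lect2 (-0.42 to 0.19) and Igfbp2 (-0.28 to 0.38). For Angptl4 it was -0.28 to 0.48, for Inhbe -0.51 to 0.38 and for Angptl8 -0.92 to 0.21. On lane 7 and lane 8 the Fgf21 difference was 0.03 and -0.47 and that of Gdf15 1.17 and 0.36.

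Fgf21 was lower by mean in KO mice than in WT mice in the LF fed state. KO mice had 8.45 ± 6.07 CPM (SD, n = 4) and WT mice 23.8 ± 13.0 CPM (SD, n = 3), and they overlapped, since KO replicate 4 (17.2 CPM) exceeded WT replicate 3 (11.7 CPM). The log2 difference was -1.48 (SE 0.49, unadjusted p = 0.0117, adjusted p = 0.787 by edgeR). It was -0.98 without WT LF fed replicate 1 and -1.06 with lane as a term. With no filter on low counts it passed (-1.49, adjusted p = 0.00227). The left-out WT LF fed mouse, at 162 CPM, moved it to -2.76 (adjusted p = 0.839).

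Lect2 in HF fasted mice had 65.2 ± 6.90 CPM in KO (SD, n = 3) and 100.7 ± 31.6 CPM in WT (SD, n = 4), a log2 difference of -0.63 (SE 0.22, unadjusted p = 0.0112, adjusted p = 0.996 by edgeR). The interaction of genotype and fasting was 1.08 for Inhbe (SE 0.43, unadjusted p = 0.0197, adjusted p = 0.971), with fasting differences of 2.09 and 1.40 in KO against 0.84 and 0.50 in WT. The interaction of genotype and diet was 0.33 for Ahsg (SE 0.15, unadjusted p = 0.0368, not passing after adjustment by edgeR). Gdf15 in LF fasted mice had 6.82 ± 8.13 CPM in KO and 2.85 ± 2.03 CPM in WT (SD, n = 4 each; exact permutation test, two-sided, p = 0.657, where 4 against 4 mice cannot give less than 0.0286).

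Of the genes of the 10 pathway lists 0 passed between KO and WT on average by edgeR, with 3 (Chac1 at 0.76, Me1 at -0.35 and Elovl6 at -0.42) at an unadjusted p below 0.05. Of all genes, DESeq2 and limma voom called 1 each. The medians were 0.03 for the PPARα targets, -0.07 for the ATF4 targets and -0.29 for the lipogenic genes, against -0.00 over all genes tested.

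Between mice of the same group, several members went up and down together. After subtraction of the group means of log2(CPM + 1), Pearson's r over the 30 mice was 0.61 between Fgf21 and Inhbe, 0.60 between Angptl4 and Inhbe, 0.54 between Fgf21 and Gdf15 and 0.46 between Fgf21 and Angptl4. It was 0.53 between Igfbp2 and Ahsg, 0.50 between the neighbours Fetub and Ahsg and -0.53 between Igfbp2 and Lect2. Spearman's rho for these 7 pairs, in the same order, was 0.61, 0.47, 0.47, 0.42, 0.50, 0.41 and -0.50. Without WT HF fed replicate 2 the r of Fetub and Ahsg was 0.22 and that of Igfbp2 and Ahsg 0.36, a check chosen after seeing the data. The r of -0.51 between Inhbe and Fetub was -0.29 without this mouse, and its rho was -0.30. Without KO HF fasted replicate 1 the r was 0.54 for Fgf21 and Inhbe, 0.49 for Angptl4 and Inhbe and 0.35 for Fgf21 and Angptl4. Without KO LF fasted replicate 4 that of Fgf21 and Gdf15 was 0.45. These were the lowest values of these pairs with a single mouse left out. Angptl8, which fell when Angptl4 rose, had an r of 0.40 with Inhbe and -0.23 with Angptl4 within groups. These values describe mice that share group, library and normalization.

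**Figure D5:**
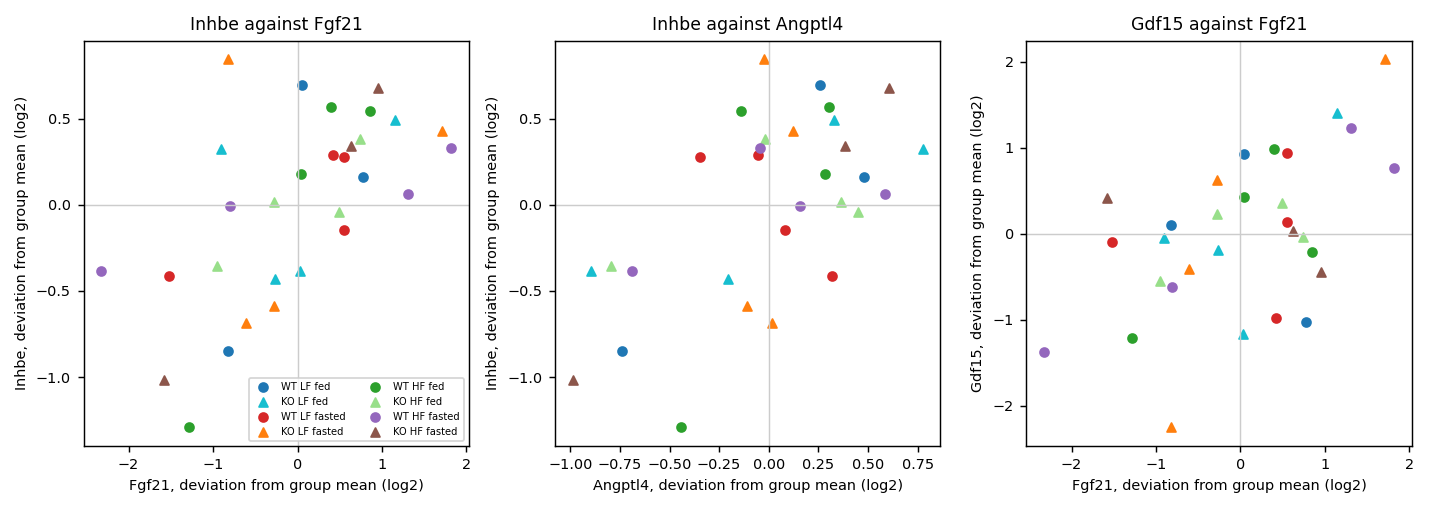
Deviation of each of 30 mice from its group mean in log2(CPM + 1) for Inhbe against Fgf21, Inhbe against Angptl4 and Gdf15 against Fgf21 (circles WT, triangles KO, colours the 8 groups). Points run from lower left to upper right in each panel, with r of 0.61, 0.60 and 0.54.

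Over the 30 mice without subtraction of group means, the genes most like each member by Pearson's r among 11566 genes were as follows. Angptl4 was most like Cyp4a10 (0.95), Slc4a4 (0.95) and Eci2 (0.95), the first and the last of them enzymes of fatty-acid oxidation. Inhbe was most like Ppara (0.88), the gene of PPARα itself, Vnn1 (0.85) and Paqr7 (0.85). Fgf21 was most like Paqr9 (0.80), G0s2 (0.74), an inhibitor of triglyceride lipase, and Ehhadh (0.73), of peroxisomal oxidation, and kept an r of 0.74, 0.73 and 0.66 with them within groups.

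Lect2 was most like Tlcd2 (0.88), Gamt (0.87) and Rgn (0.86), and Igfbp2 most like Mug1 (0.83), Scamp1 (0.83) and Nrbp2 (0.82). Angptl8 was most like Ssr1 (0.82), Actn1 (0.81) and Cyb5r3 (0.80), with r of 0.39, 0.33 and 0.31 within groups, so that its likeness lay mostly between groups. Gdf15 was most like Efna1 (0.77), Hes1 (0.72) and Slc44a1 (0.68), Fetub most like Pcbp2 (0.75), Rab18 (0.70) and Cdk9 (0.70) and Ahsg most like Fgl1 (0.69), Sdc4 (0.68) and Stat3 (0.66).

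RNA of other tissues differed between single mice. Apart from WT HF fasted replicate 2, the acinar pancreas sum was high in KO HF fed replicate 1 (2674 CPM, with no more than 61.2 CPM in the remaining 28), which also had 1220 CPM of 6 skeletal muscle genes. The 8 adrenal cortex genes summed to 294 and 125 CPM in KO LF fasted replicates 3 and 4, the latter being the mouse with 102 CPM of Fgf21, and to 41.6 CPM or less elsewhere. The 8 adipose genes summed to 2063 to 3667 CPM in fed mice and 194 to 2361 CPM in fasted mice, with Car3 between 28.5 and 3637 CPM, and to 9.27 to 174 CPM over all mice without Car3 and Cidec. Adipoq was at most 8.60 CPM and Lep at most 0.349 CPM, at or below 3 counts in 23 and 30 mice. The acute-phase sum was 15337 CPM in KO HF fasted replicate 3, which had the highest Ahsg, and 5664 to 8922 CPM in the other 29 mice. The part of these differences in the member values was not tested beyond the acinar term given above.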

How the data were processed

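Liver RNA of 32 mice was measured as 3′ (QuantSeq) libraries. The deposited values are raw counts of reads per gene, which the authors made by alignment to the mouse genome and counting on genes, with HISAT 0.1.5, SAMtools 1.2 and HTSeq 0.6.1p1 in the submitters' processing notes. The study's methods name Ensembl release 82 and the file's label release 76, and the strand setting is not given in the sources used here. Symbols were matched for 19913 of 20076 gene IDs.

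Genes were kept by filterByExpr, scaled by TMM and tested with edgeR 4.0.16 (robust quasi-likelihood F test, Benjamini-Hochberg adjustment, adjusted p below 0.05; R 4.3.3), over the 8 groups for fasting, diet and interactions and over the 2 groups compared for KO against WT within a condition. A called difference is one past this threshold, and intervals are at the 95% level. Levels are CPM on library sizes scaled by TMM, and correlations used log2(CPM + 1). A count of 0 allows up to 3 counts, or 0.699 to 1.48 CPM by library, which covers counting error only. Mice are the replicates, so p-values measure the spread between mice. No 2 libraries of a group agreed within sampling noise (48 pairs, smallest chi-square per gene 3.93). The code was tested on simulated data.

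The members and the gene lists were chosen with earlier results of these data known. Genes outside the 9 were named where they had the smallest p of their list (up to 4), were the only call of a list, or were among the 3 most like a member. Where a list had 5 calls or fewer they were named, except that some list genes are not reported here, and genes at an unadjusted p only were named after their values were seen. Alternatives were DESeq2 1.42.0, its RLE size factors in edgeR, limma 3.58.1 (voom), the 8-group model for KO against WT, other filters (none, or a mean count of 10), lane, age and acinar terms, each lane alone, the 2 groups alone, the left-out mice, the replicate block and leaving out each mouse. The fits of each lane alone had additive terms for fasting, diet and genotype, without their interactions. SciPy 1.17.1 gave exact permutation tests, and Python 3.11.15 with matplotlib 3.10.9 drew the figures.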

Additional observations from a re-analysis of the deposited data

Results flagged for a closer look

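The 9 genes in the 6 groups of 4 mice gave 54 sets of 4 values. In 5 of the 54 sets 1 mouse lay far from the other 3 by Dixon's test. Chance flags about 1 in 20 independent sets, and these sets share mice between genes. Fgf21 was at 102 CPM in KO LF fasted replicate 4, with the next mouse of that group at 24.8 CPM, and at 9.31 CPM in WT LF fasted replicate 1, the lowest of its group. Fetub was lowest in WT HF fasted replicate 1 (119 CPM), Ahsg highest in WT HF fed replicate 2 (9663 CPM) and Lect2 highest in WT LF fasted replicate 4 (50.6 CPM).

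The fasting response differed between LF and HF by the interaction test for Angptl4 (-1.42 on the log2 scale, edgeR adjusted p = 0.0384) and Angptl8 (2.59, adjusted p = 0.00998).

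The WT LF fed mouse left out of the comparisons had 162 CPM of Fgf21, above the 37.5 CPM of the highest WT LF fed mouse kept.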

How the results depend on the processing

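Of 4354 values recomputed under an alternative, 4026 kept direction and side of the threshold, 92 lost a call, 33 gained one and 203 changed sign. None of the 203 was called before or after the change or had an unadjusted p below 0.05 under the alternative. In the main fit 1 of them had an unadjusted p below 0.05. This was Ahsg for diet in KO fasted mice (0.40, edgeR unadjusted p = 0.0165), which was -0.013 with all 32 mice. The number of members called moved by over 1.5 times as follows, and the cause was not tested. On fasting it went from 4 to 2 in WT on LF with all 32 mice or no filter, from 4 to 2 in KO on LF with all 32 mice, and from 1 to 0 in WT on HF with all 32 mice, no filter, lane or age as a term. In KO on HF it went from 0 to 3 with DESeq2 and to 1 with the 2 groups alone, and the average went from 6 to 3 within lane 7. For diet it went from 0 to 1 in WT fed and KO fed mice with the 2 groups alone, from 1 to 0 in WT fasted mice with all 32 mice or the acinar term, and on average from 2 to 0 with all 32 mice or within lane 7 and to 1 with no filter or within lane 8. Diet by fasting went from 2 to 0 with all 32 mice or with WT LF fed replicate 2 alone put back and to 1 with no filter, and KO against WT in LF fed mice from 0 to 1 with no filter. Smaller moves were, on fasting, to 5 with DESeq2, WT LF fed replicate 2 put back or the 2 groups alone and to 3 with the lane or acinar term (WT on LF), to 5 with voom or a mean count of 10, and 3 with no filter or the 2 groups alone (KO on LF), and to 5 with all 32 mice or within lane 8 (average). In KO on LF DESeq2 called 6. The diet average went to 3 with DESeq2, voom or the acinar term, and diet by fasting to 3 with DESeq2 or voom.

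Without any 1 mouse, members called ranged from 2 to 4 (WT LF), 0 to 1 (WT HF), 3 to 5 (KO LF), 0 to 3 (KO HF) and 6 to 7 (average) on fasting, 0 to 1 (WT fasted) and 1 to 3 (average) for diet and 1 to 2 for diet by fasting, and stayed at 0 in the other comparisons.

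The values that changed sign were differences that did not pass the test, given here as log2 differences. With WT LF fed replicate 2 put back values were, on fasting in WT on LF Fgf21 -0.80, for diet in WT fed mice Fetub 0.064, for diet on average Gdf15 -0.014, for KO against WT on average Fetub 0.022, for genotype by fasting Igfbp2 -0.048, Fetub -0.038, Ahsg 0.022, for genotype by diet Gdf15 0.018, Igfbp2 -0.014, Fetub -0.035, for KO against WT in LF fed mice Fetub 0.17, Ahsg -0.068, Lect2 0.052. With both left-out mice put back values were, on fasting in WT on LF Fgf21 -0.80, on fasting in KO on HF Fetub -0.0016, for diet in WT fed mice Fetub 0.065, for diet in KO fasted mice Fetub -0.29 and Ahsg -0.013, for diet on average Angptl4 -0.0033 and Gdf15 -0.12, for KO against WT on average Igfbp2 -0.0075, for diet by fasting Fetub -0.12, for genotype by fasting Igfbp2 -0.25 and Fetub -0.24, for genotype by diet Igfbp2 -0.22, Inhbe -0.0054, Fetub -0.24, for KO against WT in LF fed mice Fetub 0.17, Ahsg -0.068, Lect2 0.052, for KO against WT in HF fasted mice Igfbp2 -0.17, Fetub -0.30, Ahsg -0.082. With lane as a term values were, on fasting in WT on HF Gdf15 -0.12, for diet in WT fasted mice Fgf21 -0.050, for diet by fasting Igfbp2 0.089, for genotype by diet Inhbe -0.0083, for KO against WT in LF fed mice Gdf15 0.39, Igfbp2 -0.077, Lect2 0.14, for KO against WT in HF fed mice Igfbp2 0.11, Ahsg 0.021, Lect2 -0.10, for KO against WT in HF fasted mice Fgf21 0.47 and Angptl4 0.034. With the acinar term values were, on fasting in WT on LF Fgf21 -0.23, for diet in KO fed mice Fgf21 0.22, for genotype by fasting Ahsg 0.028, for KO against WT in LF fed mice Gdf15 0.28 and Lect2 0.076, for KO against WT in LF fasted mice Lect2 -0.25. With the replicate block values were, for genotype by diet Gdf15 0.36, for KO against WT in LF fed mice Igfbp2 -0.048 and Ahsg -0.022, for KO against WT in HF fed mice Igfbp2 0.046 and Ahsg 0.0026, for KO against WT in HF fasted mice Fgf21 0.17 and Angptl4 0.080. With limma voom values were, for diet in WT fasted mice Fgf21 -0.26, for genotype by diet Gdf15 0.58, for KO against WT in HF fed mice Igfbp2 0.048 and Ahsg 0.0021. Within lane 7 values were, for diet on average Angptl4 -0.34, for KO against WT on average Fgf21 0.030, Angptl8 0.43, Igfbp2 -0.065, Inhbe 0.18. Within lane 8 values were, for diet on average Angptl8 -0.39 and Gdf15 -0.42, for KO against WT on average Ahsg 0.12. Lect2 for KO against WT in HF fed mice was -0.0045 with the 8-group model, -0.00073 with DESeq2 and -0.00026 with RLE size factors, and Ahsg in LF fed mice -0.0058 with no filter.

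Leaving out each mouse in turn gave log2 values, on fasting in WT on HF Angptl8 -0.46 to 0.053 and Gdf15 -0.15 to 0.82, on fasting in KO on LF Fetub -0.14 to 0.25. For diet they were, in WT fasted mice Fgf21 -0.44 to 0.63, in KO fed mice Fgf21 -0.53 to 0.36, in KO fasted mice Fgf21 -0.89 to 0.55 and Fetub -0.045 to 0.35, on average Angptl4 -0.035 to 0.13 and Gdf15 -0.062 to 0.37. Interaction values were, for diet by fasting Igfbp2 -0.21 to 0.15, for genotype by fasting Angptl4 -0.022 to 0.30, Igfbp2 -0.16 to 0.17, Fetub -0.076 to 0.16 and Ahsg -0.087 to 0.041, for genotype by diet Fgf21 -0.093 to 0.66, Angptl4 -0.065 to 0.26, Gdf15 -0.43 to 0.50, Igfbp2 -0.091 to 0.27 and Inhbe -0.12 to 0.25. Between KO and WT they were, on average Igfbp2 -0.030 to 0.15, Inhbe -0.15 to 0.036, Fetub -0.095 to 0.040 and Ahsg -0.048 to 0.025, in LF fed mice Angptl4 -0.56 to 0.0030, Gdf15 -0.90 to 0.47, Igfbp2 -0.0063 to 0.38, Ahsg -0.033 to 0.059 and Lect2 -0.27 to 0.18, in LF fasted mice Fgf21 -0.72 to 0.54, Igfbp2 -0.28 to 0.067, Fetub -0.33 to 0.066 and Lect2 -0.12 to 0.37, in HF fed mice Gdf15 -0.18 to 0.60, Igfbp2 -0.23 to 0.34, Fetub -0.23 to 0.23, Ahsg -0.071 to 0.14 and Lect2 -0.18 to 0.18, in HF fasted mice Fgf21 -0.86 to 0.28, Angptl4 -0.34 to 0.30, Angptl8 -0.56 to 0.095 and Igfbp2 -0.086 to 0.51.

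Genes called, with the value used in the text first, ranged for fasting over 414 to 1056 (872, WT LF), 0 to 141 (49, WT HF), 735 to 1813 (1595, KO LF), 8 to 144 (61, KO HF) and 344 to 2383 (2187, average). For diet they ranged over 0 to 29 (9, WT fed), 5 to 255 (129, WT fasted), 0 to 92 (1, KO fed), 13 to 385 (194, KO fasted) and 53 to 588 (404, average), and for diet by fasting over 22 to 430 (285). For KO against WT they ranged over 1 to 39 (2, LF fed), 1 to 4 (1, LF fasted), 1 to 15 (1, HF fed) and 1 to 18 (1, HF fasted).

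Replicate numbers did not pair the mice: over 98 pairs with the same number the median correlation of deviations was 0.00656, and 3 exceeded 0.1. With a replicate block the calls of Angptl4 in WT on HF (adjusted p = 0.0720, leaving 0 members), Angptl4 for diet by fasting (0.0611) and Lect2 in KO on LF (0.0652) were lost, and Igfbp2 in KO on LF (0.0125) and Gdf15 for diet by fasting (0.0359) were gained, by edgeR.

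Gdf15, with as few as 0 counts in a mouse, was the member most limited by depth. All WT LF fed mice were on lane 8, so lane and that group cannot be fully told apart.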
